A study of Mus musculus with 2 samples.

Results

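The genes described here are 35 members of the pathway that burns pyruvate in mitochondria: the pyruvate carrier, the pyruvate dehydrogenase complex with its kinases and phosphatases, the enzymes of the tricarboxylic acid (TCA) cycle, and the malate and aspartate enzymes that carry reducing equivalents into mitochondria. They were chosen by symbol, not by a rule on their values, from 55536 genes listed in total RNA sequencing of the heart. Earlier results of these data were known when they were chosen. The hearts came from male B6CASTF1/J mice, hybrids of the strains B6 and CAST in the F1 generation, obtained from The Jackson Laboratory, at an age of 36 days. The labels give no treatment and 1 group with 2 biological replicates, each a 300 ng RNA sample made into a stranded library after ribosomal RNA reduction, with ERCC spike-in RNAs added. Both replicates, called hearts here, are separate biosamples with the same donor entry. Nothing in the labels says whether that entry stands for 1 animal, so the spread between them may be technical. No groups were compared.

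Pyruvate from glycolysis or lactate enters mitochondria through the carrier and is turned by pyruvate dehydrogenase into acetyl-CoA. Phosphorylation by the kinases switches that complex off, and the phosphatases switch it back on. The TCA cycle oxidises acetyl-CoA from pyruvate, fatty acids or ketone bodies and feeds electrons to the respiratory chain, which supplies most ATP of the beating heart. Pdk4, a kinase that rises on fasting and fatty acid supply in many tissues, is a common marker of glucose sparing in the heart.

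Every one of the 35 genes was expressed in both hearts at 1 TPM (a level per transcript length, scaled to a fixed total) or more, beside 49.9% of the 21938 nuclear protein-coding genes. The total of TPM is fixed in each library, and spike-ins count toward it. In both hearts 26 of the 35 were at 100 TPM or more and 9 were below it, of which 4 were under 20 TPM. The top 500 genes of that class by mean TPM, 2.28% of it, included 26 of the 35. Together the 35 genes held 2.63% of nuclear protein-coding TPM in replicate 1 and 2.76% in replicate 2, a mean of 2.69% ± 0.0852 (SD, n = 2, as for every ± given here). The libraries held 41846508 and 42481559 expected counts, of which Pdk3 took 85 and 75 and Ogdh 75082 and 78096, so the lowest of the 35 genes was measured with far less precision than the highest.

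**Figure D1:**
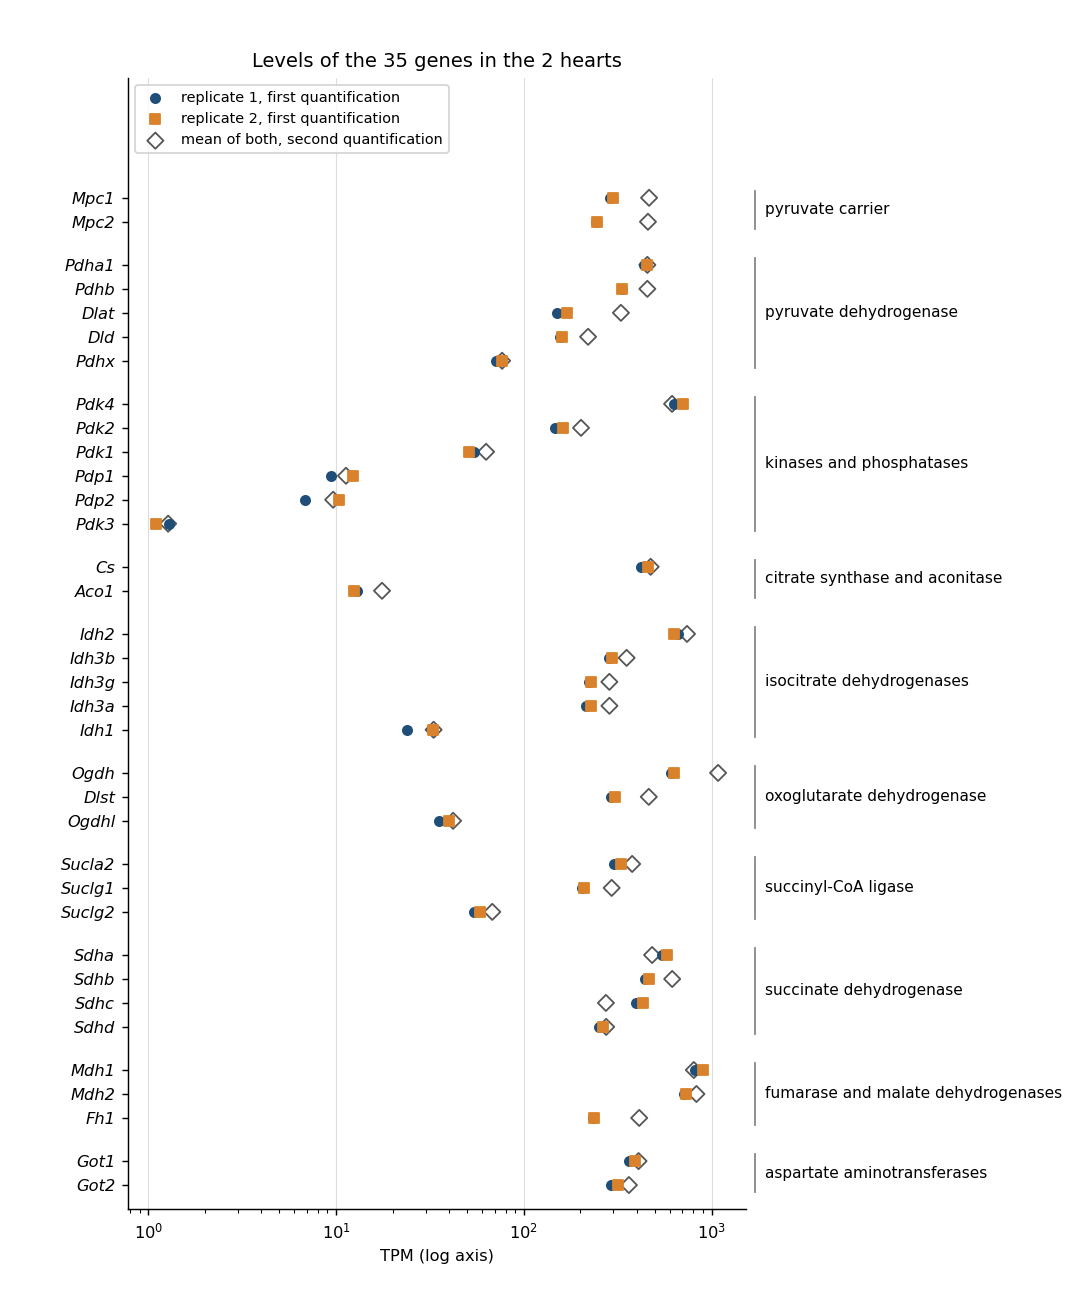
TPM on a log axis for the 35 genes, grouped by role, with a filled circle for replicate 1, a filled square for replicate 2 and an open diamond for the mean of both hearts in the second quantification. The paired filled symbols nearly coincide for most genes, Pdk3 stands lowest near 1 TPM, and the diamonds of Ogdh, Fh1, Dlat and Mpc2 lie to the right of the filled symbols.

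The pyruvate carrier is a complex of Mpc1 and Mpc2. Mpc1 stood at 289 TPM in replicate 1 and 297 TPM in replicate 2. Mpc2 stood at 243.5 and 244.6 TPM, below Mpc1 in both hearts. Mpc1 thus held 54.6% ± 0.420 of the pair's TPM. A further quantification, which the authors made from reads and an index and deposited as well, is called the second here. It gave 31 of the 35 genes a higher mean TPM, with a median of 1.199 times the first, near the 1.17 times of all nuclear protein-coding genes at 1 TPM or more. Both carrier genes were higher in it, 465 TPM for Mpc1 and 458 TPM for Mpc2, with near equal shares and Mpc1 at 50.3% ± 0.697.

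Within the pyruvate dehydrogenase complex the first enzyme, E1, was the most abundant. Its alpha subunit Pdha1, on the X chromosome (160122209 to 160138413 on mm10) and the subunit that the kinases phosphorylate, was at 439 and 453 TPM. The beta subunit Pdhb was at 332 and 334 TPM. Pdha1 held 57.2% ± 0.411 of the pair's TPM in the first quantification and 49.995% ± 0.323 in the second, so its lead rests on the quantification used. Dlat, the E2 core that passes on the acetyl group, was at 151 and 169.8 TPM. Pdhx, which anchors E3 to that core, was at 71.5 and 76.8 TPM. Dlat therefore exceeded Pdhx 2.16 ± 0.0737 times, and 4.29 ± 0.0556 times in the second quantification. Dld, the E3 subunit shared with the oxoglutarate and branched-chain complexes, was at 156 and 160 TPM and overlapped Dlat between hearts. The 5 subunit genes summed to 1149 TPM in replicate 1 and 1194 TPM in replicate 2.

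The kinases were dominated by Pdk4 and were far more abundant than the phosphatases. Pdk4 (chromosome 6, 5483351 to 5496309) was at 632 TPM in replicate 1 and 705 TPM in replicate 2, the third highest mean of the 35 genes and above every subunit of the complex that it inhibits. Pdk2, a broadly expressed kinase, was at 147 and 162 TPM, and Pdk1, which hypoxia induces in many cells, at 54.0 and 51.0 TPM. Pdk3 was the lowest of all 35 genes, with 1.29 and 1.10 TPM from 85 and 75 expected counts. In shares of kinase TPM, Pdk4 held 76.2% ± 0.646, Pdk2 17.6% ± 0.0368, Pdk1 6.02% ± 0.658 and Pdk3 0.137% ± 0.0248. The second quantification kept this order with Pdk4 at 69.8% ± 0.1998. Pdp1, the calcium-stimulated phosphatase, was at 9.37 and 12.4 TPM, and Pdp2, known as an insulin-sensitive phosphatase, at 6.83 and 10.4 TPM. Summed levels of the 4 kinases were 834 and 919 TPM, against 16.2 and 22.7 TPM for the 2 phosphatases. That is 51.5 times the phosphatase level in replicate 1 and 40.4 times in replicate 2, a ratio of RNA levels and not of enzyme activity.

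**Figure D2:**
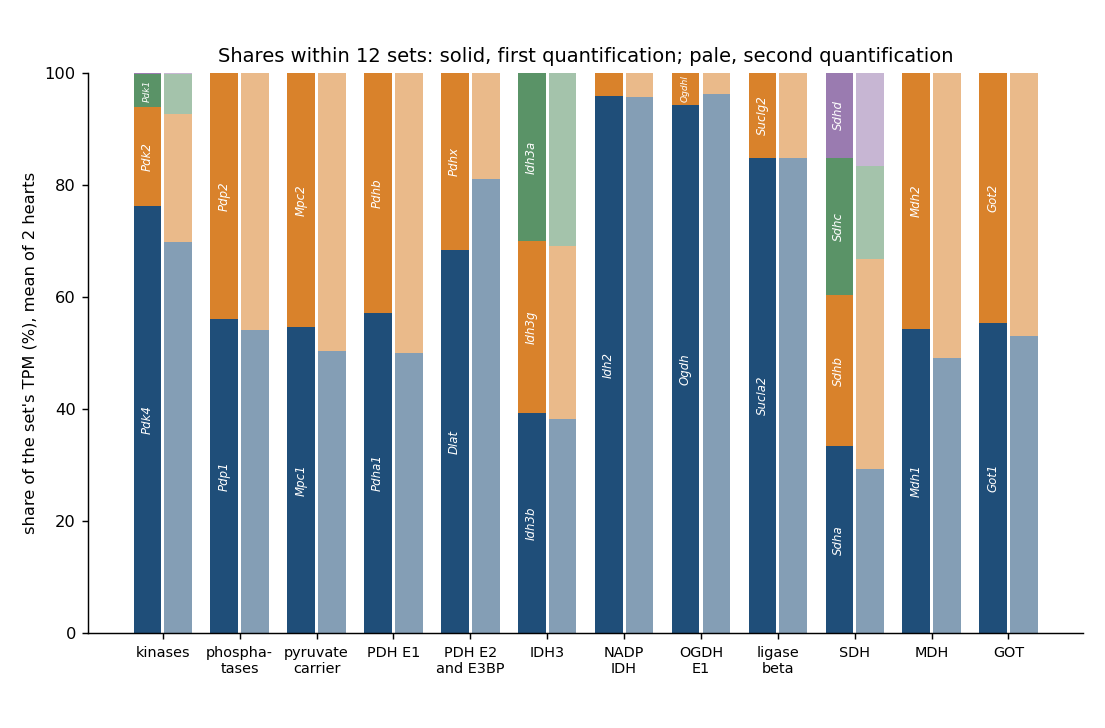
Percent of TPM held by each gene within 12 sets of subunits or paralogs, stacked to 100% and averaged over the 2 hearts, with a solid bar for the first and a pale bar in the same order for the second quantification. Pdk4, Idh2, Ogdh and Sucla2 hold most of their sets in both bars, while Pdha1 and Pdhb, Mdh1 and Mdh2, and the succinate dehydrogenase subunits shift between them.

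Citrate synthase, Cs, which opens the cycle and is often used as a measure of mitochondrial content, was at 421 and 458 TPM. Aco1, the cytosolic aconitase that doubles as iron regulatory protein 1, was at 12.9 and 12.5 TPM, the fourth lowest. It is the only aconitase among the 35 genes, and the mitochondrial one was not analysed here.

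Both kinds of mitochondrial isocitrate dehydrogenase were abundant. The NADP-dependent mitochondrial enzyme Idh2 (chromosome 7, 80094846 to 80115392) was at 659 TPM in replicate 1 and 633 TPM in replicate 2. Its cytosolic counterpart Idh1 was at 23.9 and 32.7 TPM, so Idh2 held 95.8% ± 1.00 of the pair. Idh2 exceeded Idh1 27.6 times in replicate 1 and 19.3 times in replicate 2. The NAD-dependent enzyme of the cycle is built from the catalytic subunit Idh3a and the subunits Idh3b and Idh3g. Idh3b was at 283 and 296 TPM, Idh3g at 222 and 229 TPM, and Idh3a at 215 and 229 TPM. Idh3b was above the others in both hearts, while Idh3a and Idh3g overlapped. Mean Idh2 was above the mean of each Idh3 subunit in both quantifications.

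Ogdh was the most abundant E1 of the oxoglutarate dehydrogenase complex and, in the second quantification, of all 35 genes. Ogdh (chromosome 11, 6291633 to 6356642) was at 611 and 629.9 TPM, and at 1083 TPM in the second quantification. In the second, the short transcripts Ogdh-206 (621 nt) and Ogdh-207 (702 nt) held 22.9% and 21.8% of Ogdh TPM. They held 3.01% and 3.65% of its counts there. Ogdhl, a paralog best known from brain, was at 35.1 and 40.2 TPM, and Ogdh held 94.3% ± 0.391 of the pair. The E2 subunit Dlst was at 291 and 306 TPM. Ogdh exceeded Dlst 2.08 ± 0.0291 times and the shared E3 gene Dld 3.92 ± 0.0207 times.

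Succinyl-CoA ligase couples a shared alpha subunit, Suclg1, to a beta subunit that sets the nucleotide. Suclg1 was at 205 and 209.6 TPM. The beta subunit for ATP, Sucla2, was at 300.5 and 328 TPM, and that for GTP, Suclg2, at 54.5 and 58.3 TPM. Sucla2 held 84.8% ± 0.170 of beta subunit TPM, a lead of 5.57 ± 0.0733 times over Suclg2 that the second quantification gave as 5.56 ± 0.157 times.

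Succinate dehydrogenase is also complex II of the respiratory chain, with the flavoprotein Sdha, the iron-sulfur subunit Sdhb and the membrane anchors Sdhc and Sdhd. Sdha (chromosome 13, 74322254 to 74350280) was at 546 and 579.6 TPM. Sdhb was at 444 and 465 TPM, Sdhc at 397 and 429.8 TPM, and Sdhd at 250.2 and 263 TPM. The shares of the 4 in the first quantification were 33.4%, 26.9%, 24.5% and 15.2%. In the second, Sdhb led with 37.4% ± 0.183 and Sdhc was level with Sdhd, at 16.6% against 16.7%. Which catalytic subunit leads is therefore not settled by these files.

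Fumarase and the malate dehydrogenases complete the cycle. Fh1 was at 233 and 236 TPM in the first quantification, with a mean of 412 TPM in the second. Mdh1, the cytosolic malate dehydrogenase (chromosome 11, 21556787 to 21572367), had the highest mean of the 35 genes, with 819 TPM in replicate 1 and 902 TPM in replicate 2, rank 43 among nuclear protein-coding genes. Mdh2, the mitochondrial enzyme (chromosome 5, 135778480 to 135790398), followed with 709.7 and 732 TPM. The second quantification put Mdh2 at 831 TPM, above Mdh1 at 804 TPM. The aspartate aminotransferases, which together with the malate dehydrogenases form the malate-aspartate shuttle, were at 365 and 389.6 TPM for cytosolic Got1 and 290.2 and 318 TPM for mitochondrial Got2. Got1 held 55.4% ± 0.450 of the pair by TPM and 47.3% by expected counts.

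In order of mean TPM, 22 of the 34 neighbouring pairs were separate, in that both hearts of the upper gene lay above both hearts of the lower, and 12 overlapped. The overlapping neighbours were Pdk4 and Idh2; the run Sdhb, Pdha1, Cs and Sdhc; the run Sucla2, Got2, Dlst, Mpc1 and Idh3b; Idh3g and Idh3a; the run Dlat, Dld and Pdk2; and Pdp1 and Pdp2. In the second quantification 17 neighbouring pairs were separate. Of the leading gene in each of the 12 sets, 9 were the same in the second quantification and 9 by expected counts.

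The hearts differed little in these genes, as in most genes with a mean count of 1000 or more. Ratios are given as log2 of replicate 2 over replicate 1 from expected counts scaled by TMM, with a 95% exact interval that covers counting error only. By a rule of size of 1.5-fold, 0 of the 35 genes differed, beside 4.27% of 12541 genes with a mean count of 50 or more. Genes of low count enter that percent, while 33 of the 35 had a mean count of 1000 or more. Among the 4289 genes at such counts, the rule was passed by only 10 toward replicate 2 and 60 toward replicate 1. Beside these, a count of 0 does not set the 35 genes apart. No test was possible, because each side of the ratio is a single library, with no replicate to show the spread. A smaller limit, a ratio of 5 to 4, took in 3 of the 35, all higher in replicate 2, beside 6.3% of all genes in that direction. These were Pdp2, Idh1 and Pdp1, each of low level. The 6.3% also takes in genes of low count, and no share among genes at 1000 counts or more is given for this limit.

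Pdp2 had 1285 expected counts in replicate 1 and 1959 in replicate 2, a log2 ratio of 0.56 (0.46 to 0.67), or 1.48-fold. It passed 1.5-fold when library totals or spike-in totals set the scale. Idh1 had 1406 and 1949 counts and a log2 ratio of 0.43 (0.33 to 0.53). Pdp1 had 814 and 1092 counts and a log2 ratio of 0.38 (0.25 to 0.51). Both phosphatases were thus higher in replicate 2, and their intervals lay above those of the kinases. Pdk4, with 49756 and 57389 counts, had a log2 ratio of 0.16 (0.14 to 0.18). Pdk2 followed at 0.07 (0.03 to 0.11), and Pdk1 was lower in replicate 2 at -0.09 (-0.14 to -0.04). The interval of Pdk3 held 0, from -0.69 to 0.24.

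Of the other enzymes, Ogdhl was at 0.19 (0.13 to 0.25), against 0.01 for Ogdh. Idh2 was the most abundant of the 6 genes higher in replicate 1, at -0.10 (-0.12 to -0.08), opposite in direction to Idh1. Counting intervals lay above 0 for 17 of the 35, below 0 for 3 (Idh2, Pdk1 and Aco1) and held 0 for 15. Among all genes with a mean count of 1000 or more, 23.0% had an interval above 0 and 22.4% below it. With spike-in totals as the scale, intervals lay above 0 for 31 of the 35 and below it for 1, Idh2, beside 47.7% and 10.9% of those genes. With library totals they lay above 0 for 25 and below it for 2, Idh2 and Pdk1, beside 30.1% and 17.7% of those genes. In direction alone 29 of the 35 were higher in replicate 2, beside 50.3% of 15749 genes with a mean count of 10 or more. Spike-in totals as the scale shift genes in general toward replicate 2, and Pdhb and Mpc1 then joined the 29. The share of all genes in that direction was not computed on that scale. By TMM the median log2 ratio was 0.04 for the 35 genes and 0.00 for those 15749. The median absolute log2 ratio was 0.05 for the 35 and 0.07 for genes at 1000 counts or more. Absolute ratios under 0.2 were held by 31 of the 35, or 88.6%, near the 87.3% of genes at that count.

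**Figure D3:**
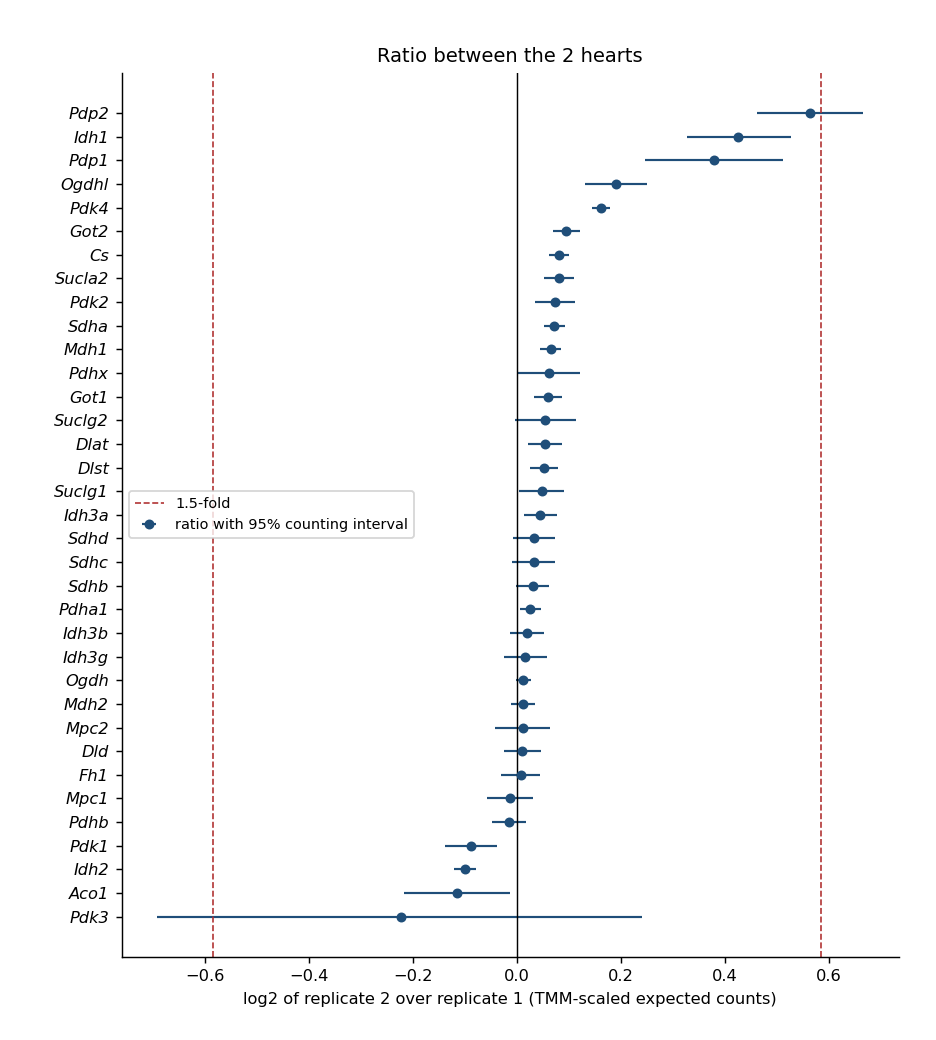
Log2 ratio of replicate 2 over replicate 1 for the 35 genes in order of the ratio, with points for TMM-scaled expected counts, bars for the 95% counting interval and dashed lines at 1.5-fold. No point passes a dashed line, Pdp2, Idh1 and Pdp1 stand apart on the right, and the widest bar belongs to Pdk3.

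Other genes and cell markers moved between the hearts as well. Markers of cardiomyocytes were higher in replicate 2 in 7 of 7 cases, with a median of 0.11 and summed levels of 21626 and 23753 TPM. Of 7 adipocyte markers, 6 were measured and all were higher in replicate 1, led by Plin1 (11.4 and 0.81 TPM), Cidec (10.7 and 0.91 TPM) and Adipoq (7.14 and 1.38 TPM). The adipocyte list summed to 427 and 356 TPM, most of it Fabp4, which endothelium also expresses. All 4 brown adipocyte markers were higher in replicate 1, summing to 131 and 75.3 TPM, with Ucp1 at 31.6 and 0.89 TPM and Elovl3 at 0.89 TPM and 0. Most of that sum was Ppargc1a at 64.3 and 56.05 TPM, a log2 ratio of -0.19, and Cidea at 34.6 and 18.35 TPM. All 7 erythroid markers were higher in replicate 1, with sums of 20329 and 9336 TPM and Hbb-bs, a beta globin, at 7190 and 3384 TPM. Medians were smaller for fibroblast markers at -0.38, macrophage markers at -0.08 and endothelial markers at -0.00396. The part of these cells in the ratios of the 35 genes was not tested, and in whole tissue fewer cells of a type and less RNA per cell cannot be told apart. The label heart matched the cardiomyocyte markers, all 7 above 300 TPM, while 0 of 4 liver markers reached 1 TPM. Of 5 skeletal muscle markers only Ckm, which heart muscle also expresses, reached 1 TPM.

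Enzymes and carriers around the cycle were described from a list of 41 genes. At 1 TPM or more in both hearts were 39 of them. Lactate dehydrogenase Ldhb was the highest at 964 and 1063 TPM, above every one of the 35 genes in each heart, with a mean of 1939.5 TPM in the second quantification, and Ldha followed at 307 and 296 TPM. The oxoglutarate carrier Slc25a11 was at 202.9 and 224 TPM and the aspartate-glutamate carrier Slc25a12 at 95.04 and 101.5 TPM, both partners of the malate-aspartate enzymes. The transhydrogenase Nnt was at 179 and 193 TPM, though it is listed under more than 1 gene identifier and the split between them is uncertain. Its mean in the second quantification was 93.0 TPM, below Slc25a12 at 113.5 TPM, and its log2 ratio between hearts turned from 0.07 to -0.08.

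Of the 39 measured, 25 were higher in replicate 2 and 14 in replicate 1, with a median log2 ratio of 0.06. At 1.5-fold or more, 1 was higher in replicate 2, beside 1.69% of all genes, and 3 in replicate 1, beside 2.58%. The 3 were enzymes and carriers at the exit of the cycle toward fat synthesis or at its refilling. The citrate carrier Slc25a1 had 821 and 107 counts, a log2 ratio of -2.97 (-3.29 to -2.69). ATP citrate lyase Acly had 4651 and 1299 counts, a log2 ratio of -1.88 (-1.97 to -1.80). Pyruvate carboxylase Pcx had 1788 and 1163 counts, a log2 ratio of -0.67 (-0.77 to -0.56). They lay in the same direction as the adipocyte markers, whose part was not tested. Furthest toward replicate 2 was Lipt2, of the lipoate pathway, at 0.71 (0.26 to 1.19) from 63 and 107 counts. In the second quantification Lipt2 was at 0.44, under 1.5-fold. Next were the complex II assembly factor Sdhaf3 at 0.35 (0.06 to 0.64) and Ldhd at 0.29 (0.17 to 0.41). Cs, the enzyme that makes the citrate, was at 0.08 (0.06 to 0.10).

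Other lists of fuel use gave a frame for the median of 0.04. Nuclear genes of oxidative phosphorylation had a median of 0.04, with 23 of 24 higher in replicate 2. Fatty acid oxidation genes had a median of 0.14, with 18 of 19 higher in replicate 2. Glycolysis genes had a median of -0.06, with 3 of 15 higher in replicate 2.

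For most of the 35 genes the same transcript ranked first in both hearts and both quantifications, though often beside others with much of the TPM. In the first quantification the main transcript was the same in both hearts for 34 genes, the exception being Pdp1, and all 35 main transcripts were protein-coding. Over both hearts and both quantifications it was the same for 27 of the 33 genes with several transcripts. The share was 67.4% of nuclear protein-coding genes with several transcripts at 1 TPM or more. That share takes in genes of far lower level, while 26 of the 35 were at 100 TPM or more. No share among genes of like level is given here, so the 2 values are not a like comparison. Those that differed were Idh1, Idh3a, Sucla2, Fh1, Mpc2 and Pdp1. In both hearts of the second quantification the leader by TPM was not annotated as protein-coding for Idh3a, Fh1 and Mpc2. These leaders were Idh3a-204 and Fh1-204, both annotated for nonsense-mediated decay, and Mpc2-203, annotated as a processed transcript. Pdp1-204 led Pdp1 in replicate 1 with 33.1% of TPM and Pdp1-202 in replicate 2 with 27.3%, while the second quantification gave Pdp1-205 82.4% ± 2.93. The first quantification gave Idh1-201 74.7% ± 0.456 of Idh1 TPM, and the second gave Idh1-203 most, with 41.1% in replicate 1 and 69.6% in replicate 2. By counts in place of TPM, the leading transcript was the same in both hearts and both quantifications for 31 of the 35, among them Sucla2, Fh1 and Mpc2. It differed for Idh1, Idh3a, Pdp1 and Sdhc. The main transcript held 90% or more of the gene's TPM for 16 genes and under 60% for 8. By expected counts it held 90% or more for 23 genes and under 60% for 2, Sdhc and Pdp1. Apart from the 67.4%, no share over all genes is given for the counts of genes in this paragraph. They describe the 35 genes alone and do not set them apart from others.

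**Figure D4:**
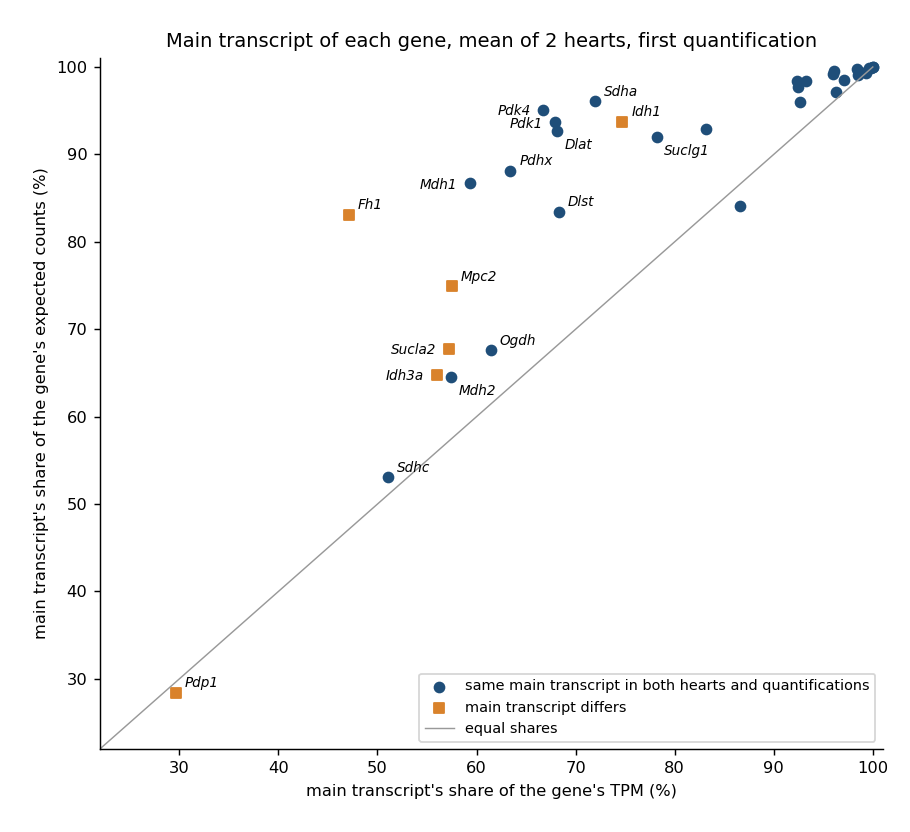
Share of the gene's expected counts held by its main transcript against its share of TPM, both in percent and as the mean of 2 hearts in the first quantification, with circles for genes whose main transcript was the same in both hearts and both quantifications and squares for the other 6. Most points lie above the line of equal shares, with Fh1, Pdk4 and Mdh1 far above it and Pdp1 alone near 30% on both axes.

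Short annotated transcripts held a larger share of TPM than of counts, since TPM divides by length. Mdh1-202, of 549 nt, held 39.9% of Mdh1 TPM with 13.0% of its counts, and 15.2% of TPM in the second quantification. Pdk4-202, a retained intron of 412 nt, held 26.1% of Pdk4 TPM with 3.44% of its counts, and 3.28% in the second. For Dlat the second quantification gave 2 short retained-intron transcripts, Dlat-203 and Dlat-206, 20.4% and 25.8% of TPM, against 0.917% and 0.606% in the first. Dlat was the only one of the 35 genes that differed 2-fold or more between quantifications, at 2.05 times, beside 8.88% of genes. By counts in place of TPM none did. At 1.5-fold or more 7 of the 35 differed, beside 20.2% of genes: Dlat, Mpc2, Fh1, Ogdh, Mpc1 and Dlst were higher in the second and Sdhc lower.

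Counting only the main transcript of each gene, a choice made after seeing the data, put Idh2 first at 638 TPM. Mdh1 followed at 509.8 TPM, Sdhb at 451 TPM and Pdk4 at 446 TPM. Mdh2 was then at 414 TPM and Ogdh at 381 TPM, below Sdhb and Cs, both of which they exceeded by the gene's TPM. The first place thus went to Mdh1, Ogdh or Idh2 depending on the measure. By this measure Pdk4 overlapped Pdha1 at 412 TPM, with 414 and 478.5 TPM against 402 and 422 TPM in replicates 1 and 2.

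Exon use is shown for 3 genes, since there the annotated transcripts differ by an exon within the coding part or one that ends it early. The sequences below are 15 bases on either side of the junction, read from GENCODE M21 transcripts 5′ to 3′, with the first bases of the exon that is in or out in capitals and skipped junctions in lower case. No junction counts are in the files used, the shares come from whole transcripts that also differ at their ends, and they are not direct counts of reads over these junctions.
Idh3a-204, extra exon: ggttttgctggtggtGGCATCGTTTGCATT
Idh3a-205, without it: ggttttgctggtggtgttcagacagtaact
Mdh2-201, exon 2 present: agcacttcggcccagAACAATGCTAAAGTG
Mdh2-203, without it: agcacttcggcccaggctaccttggaccgg
Sdhc-202, exon 3 present: gctttgtatcagaaaTGCTGCTCCTTTGGG
Sdhc-201, without it: gctttgtatcagaaaatggtctcttcctat

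The extra Idh3a exon is 95 nt long (chromosome 9, 54592161 to 54592255 on mm10) and is exon 3 of the 12 of Idh3a-204, a transcript annotated for nonsense-mediated decay. Coding sequence runs over 21 nt of it. Transcripts with the exon held 42.8% of the TPM of full transcripts over this stretch in replicate 1 and 43.8% in replicate 2, a mean of 43.3% ± 0.670. The second quantification gave 61.3% ± 0.804. Both hearts agreed closely, and the quantifications differed by far more than the hearts. By counts the shares were 34.5% and 51.1%.

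For Mdh2 it is the transcript without the exon that is annotated for decay. Exon 2 is 169 nt long (chromosome 5, 135783305 to 135783473), all of it coding. Transcripts with it held 57.9% ± 0.770 in the first quantification and 84.5% ± 0.842 in the second. The transcript without it was therefore a minority in both.

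The Sdhc exon, 102 nt (chromosome 1, 171143558 to 171143659), is coding and a whole number of codons long. Transcripts with it held 48.9% ± 0.350 of TPM in the first quantification and 17.3% ± 0.185 in the second. By counts they held 47.0% and 54.5%. Sdhc-203, one of the transcripts with the exon and only 298 nt long, held 41.0% of Sdhc TPM in the first and 0.254% in the second.

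Some of the genes share stretches with other annotated genes. Of the 100-base words of the main transcript, 22.1% for Mpc1, 17.2% for Got2, 16.1% for Suclg2 and 10.5% for Pdhb also occur exactly in the transcript of another gene, and 0 for the other 31. Expected counts of these 4 were not whole numbers, within 0.005, and their levels and shares are uncertain. In replicates 1 and 2 the other gene had 1210 and 1239 counts, beside 8109 and 8282 for Mpc1. For Got2 it had 3053 and 3190, beside 23683 and 26088. For Suclg2 it had 425 and 443, beside 4575 and 4901, and for Pdhb 58.5 and 61.3, beside 15507 and 15824. How reads of the shared stretches were divided was not tested. Cs and Pdk4 also had counts that were not whole, and the other 29 had whole counts in both hearts, beside 85% of 13521 nuclear protein-coding genes with a mean count of 10 or more.

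Promoters, from 250 bases before to 50 after the start, were found for 32 of the 35 genes in RefSeq on GRCm38.p6, which has the coordinates of mm10. Both strands were searched for TNAAGGTCA, the element bound by estrogen-related receptors, and CGCATGCG, the core of the NRF1 site, which regulate many mitochondrial genes and do not overlap in letters. The 32 genes have 41 promoters in the table. The first element was in 1 of the 41, of Sdhd, and in 1.28% of all 32851 promoters. The second was in 2 of the 41, overlapping promoters of Ogdh that hold the same site, and in 1.87% of all promoters. Both windows are shown with the match in capitals, which for Sdhd reads on the opposite strand of the gene.
Sdhd, chr9:50603800-50603823, minus strand: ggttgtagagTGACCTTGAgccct
Ogdh, chr11:6292534-6292561, plus strand: aggtgttgtgCGCATGCGtaactcaact
A match is a description of letters. Among the other genes, Idh3a, Pdp1 and Sdhc had no entry in the promoter table.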

How the data were processed

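Per the sample notes, the first quantification used transcriptome alignments (mm10, GENCODE M21), and the authors deposited its expected counts per gene and transcript. The authors also deposited TPM, FPKM and, for each transcript, its percent of the TPM of its gene. The second quantification, from reads and an index, was deposited as estimated counts and TPM per transcript, summed here per gene. Neither tools nor versions of them were named in the labels or notes. Reads of both parental alleles are summed, and how CAST reads aligned to mm10 was not tested.

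Expected counts were rounded for TMM factors (edgeR 4.0.16) and size factors (DESeq2 1.42.0) in R 4.3.3, without spike-ins and numbered tRNA entries. Log2 ratios used a prior count of 1, and their 95% intervals are exact Clopper-Pearson intervals on the 2 counts. These intervals cover counting error only, as reads lacking molecular identifiers need not be independent. The rule of size was 1.5-fold at a mean count of 50 or more. Medians of lists used genes with a mean count of 10 or more.

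Named are all 35 genes, the 5 most abundant of the 41 related genes, the 3 of these furthest in each direction, and up to 3 markers of each list whose median ratio moved by 0.5 or more. Cs beside the citrate genes, Fabp4, Ckm, Ppargc1a and Cidea were named after their values were seen. The 35 genes and all lists were chosen with earlier results of these data known. In 2 simulated libraries of 55450 genes with counting error only, the median log2 ratio was 1.00 for a 2-fold change that was put in. Of unchanged genes, 0.255% passed 1.5-fold. The simulation held no spread between hearts, so that percent is not an error rate for these data. Alternatives covered detection levels, units, scalings, count filters, fold limits, the second quantification and each library alone. Shared words, junctions and motifs were computed in Python 3.11.15. A further exon comparison is not reported here.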

Additional observations from a re-analysis of the deposited data

How the results depend on the processing

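All 35 genes stayed at 1 TPM or more in the second quantification and in each library alone, and 32 reached 10 TPM in both hearts. Their share of nuclear protein-coding TPM, 2.69%, was 2.56% by expected counts, 2.51% in the second quantification and 1.02% of all listed entries, and 2.63% to 2.76% with each replicate left out. The count at 1.5-fold or more between hearts, 0, became 1 (Pdp2) with library totals, 1 (Pdp2) with spike-in totals, and 3 at a ratio of 5 to 4. The median log2 ratio of 0.04 ran from 0.04 to 0.12 over scalings, highest with spike-in totals, which also turned the sign of Pdhb and Mpc1. The second quantification turned that of Mpc1. Between quantifications 1 gene differed 2-fold, 7 differed 1.5-fold, 0 differed 4-fold and, by counts in place of TPM, 0 differed 2-fold. Of the related genes, Lipt2 was under 1.5-fold in the second quantification. The causes were not tested. No paired analysis was possible because there is 1 group. Levels of Pdk3, with 85 and 75 counts, are limited by depth, and the 2 hearts limit every ratio.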
